A study of Drosophila melanogaster with 2 samples.

Results

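A set of 175 array probes, of 14532 on the array, had strongly negative values in both comparisons of endocycling with mitotic larval tissue of *Drosophila melanogaster*. The members were selected on the deposited log2 ratios themselves: a probe needed a value in each column, which 4391 probes had, and a value of -2.5 or less in each, a difference of 5.66-fold or more. Salivary glands formed the first comparison and fat bodies the second, each against brain-disc complexes, the brain together with the imaginal discs. The larvae were wild-type, of the strain yw67c23, in the feeding stage of the third instar and 70 to 75 hours past egg laying, and each tissue was taken by hand dissection. On each array the endocycling tissue carried Cy3 and the brain-disc complexes Cy5, and each column is the authors' average over independent dissections, of which there were 2 for fat bodies and 3 for salivary glands. Values of single arrays were not analysed here, so no member has an error or a p-value.

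Salivary gland and fat body cells of the larva grow by the endocycle, in which rounds of DNA synthesis follow each other with no mitosis between them, and they become polyploid. The salivary gland secretes glue proteins. The fat body stores nutrients and regulates metabolism, much as liver and adipose tissue do in mammals. Neural progenitors of the brain and cells of the imaginal discs divide by mitosis, and the brain also holds neurons and glia that have left the cycle. Brain-disc complexes thus differ from the other organs in their cell types as well as in their cycle. They also carried the other dye on each array, with no exchange of dyes. What cell types, cycle and dye each contribute to a value cannot be told apart. In tissue RNA of this kind, fewer cells of a type and less RNA per cell cannot be told apart.

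By the order of the tissues in the titles, a negative value means less transcript in the endocycling tissue than in brain-disc complexes. This direction rests on the titles alone and is not settled, since which dye is the numerator is not stated. Every member would be higher in both endocycling tissues if the ratio ran the other way. Marker genes could not check this direction. Of the 14532 probe IDs on the array, the 175 members included, 0 were found in the RefSeq table of 17872 fly genes. Nor could the 13 lists of cell cycle, apoptosis and tissue genes be used, and no gene, role or probe sequence is given for a member. Members are therefore described by their values, their replication and the plate, row and column read from their IDs.

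The probe that ranked highest by the less negative of its values was DAC019N19, with a fat body value of -8.97 and a salivary gland value of -6.43. DAC029D05 followed, with a fat body value of -7.16 and a salivary gland value of -5.84. Both probes were more negative in the fat body. The 10 leading members ran from -8.97 to -4.57 in fat body and from -6.43 to -4.61 in salivary gland. The closest values among the 10 were those of the fourth, at -5.44 in fat body and -5.38 in salivary gland. In the eighth and the tenth the salivary gland value was the lower one, at -5.42 against -4.78 and at -6.31 against -4.57.

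Over all 175 members, salivary gland values ran from -9.51 to -2.51, with a median of -3.37. Fat body values ran from -8.97 to -2.505, with a median of -3.59. In the salivary gland column 52 members were above -3, 86 lay between -4 and -3, and 37 (21.1%) were at -4 or less. The fat body column held 46 above -3, 64 between -4 and -3, and 65 (37.1%) at -4 or less. Both values were at -3 or less for 96 members, at -4 or less for 25 and at -5 or less for 6.

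The share of probes past the threshold was 9.25% in the salivary gland column (406 of the 4391 probes with both values), 6.56% in the fat body column (288 probes) and 3.99% in both. These shares are what the selection used. The members made up 43.1% of the salivary gland list and 60.8% of the fat body list. Brain-disc RNA, always in Cy5, is the comparator of each column, so the columns are not independent. The 231 salivary gland probes that were not members had a median fat body value of -1.56, and 155 of them were at -1 or less there. The 113 fat body probes that were not members had a median salivary gland value of -1.90, and 96 of them were at -1 or less there. Over all 4391 probes the medians were -0.33 in fat body and -0.52 in salivary gland, and 30.6% and 36.6% of the values were at -1 or less.

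The threshold cut through a continuous range. Within 0.1 of it, 20 members lay just inside and 21 probes just outside. The innermost member had a fat body value of -2.505 and a salivary gland value of -2.71. The nearest probe outside had a fat body value of -2.4985 and a salivary gland value of -4.06. The column medians lay below 0, at -0.22 for salivary gland and -0.18 for fat body, and relative to them 141 of the members stayed past the threshold. Relative to the medians of the 4391 probes with both values, a zero point chosen after seeing the data, 105 did.

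Since the rule bounds both values from above, and both columns contain brain-disc RNA, how close a member's values lie is in part set by the selection and is given as a description. The values lay within 2-fold of each other for 126 of 175 members (72.0%), against 63.6% of the other 4216 probes with both values and 75.6% of the 819 probes that were at -1 or less in both columns without being members. The 198 probes at 2.5 or more in both columns, the mirror set, stood at 41.9%. No replicate spread is known for any of these differences. Of the members, 101 (57.7%) were lower in the fat body and 74 in the salivary gland, and the median of salivary gland minus fat body was 0.09. Over all 4391 probes the split ran the other way, with 1842 (41.9%) lower in the fat body, 2549 lower in the salivary gland and a median difference of -0.21. In the mirror set, 166 of 198 had the larger fat body value and that median was -1.05.

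Of the 49 members beyond 2-fold, 33 (18.9% of all members) were lower in the fat body and 16 (9.14%) in the salivary gland. Over all probes with both values these counts were 547 (12.5%) and 1038 (23.6%). In the set at -1 or less they were 77 (9.40%) and 123 (15.0%). The columns differed by more than 4-fold in 15 of the 175 members and in 482 of all 4391 probes. The most uneven member held the lowest salivary gland value of all, -9.51, beside a fat body value of -4.49. The opposite extreme had -8.97 in fat body and -4.21 in salivary gland. Of the 10 lowest members in each column, 3 were common to both. The fat body values of the 10 lowest in the salivary gland ran from -8.97 to -2.76, and the salivary gland values of the 10 lowest in the fat body from -6.43 to -2.74.

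The lowest fat body value, -8.966, occurred 3 times, and all 3 probes were members. Their IDs gave 3 different plate numbers. The salivary gland values of these probes were -6.43, -5.49 and -4.21. The next fat body value was 1.81 higher, at -7.16. Read in base 2, -8.966 is a 500-fold difference, a round figure. The lowest salivary gland value, -9.51, lay below it. Whether -8.966 marks a lower limit of the fat body ratios was not tested. Among members, every other value occurred at most 2 times in its column. DAC019N19 is one of the 3, so its place at the head of the list uses the repeated value only for the fat body, and its salivary gland value of -6.43 sets its rank.

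How many arrays stand behind a value can be read in part from its decimals, which the selection did not use. The reading assumes that single arrays gave values with 3 decimals, and each value of the 4391 probes fitted one of the patterns that follow from it. A mean of 2 arrays gains a further digit, a 5, about as often as not, and a mean of 3 ends in a repeating fraction for about 2 in 3 probes. In the fat body column 60 of 175 members (34.3%, exact 95% interval 27.3 to 41.8%) ended in the added 5, against 49.2% of the other probes with both values (47.6 to 50.7%). An estimated 55 fat body values of members (31.4%, 16.4 to 45.4%) therefore came from 1 array, against an estimated 70 (1.66%) of 4216 other probes. The intervals cover counting error only and treat probes as independent.

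Probes past the threshold in 1 column were counted in the same way. Of the 113 probes at -2.5 or less in the fat body that were not members, 57 (50.4%, 40.9 to 60.0%) ended in the added 5, about the share among all other probes. Of the 231 probes low in the salivary gland alone, 95 (41.1%, 34.7 to 47.8%) did so in the fat body column. The 819 probes at -1 or less in both without being members stood at 49.2%, and the mirror set at 44.9%. Among members the share was 36.9% at fat body values of -4 or less, 31.3% between -4 and -3 and 34.8% above -3.

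In the salivary gland column the intervals for members took in the shares among other probes for both patterns that show an average. Values with 3 decimals made up 49.7% of members against 41.8% of other probes, with no interval computed. A repeating fraction was found in 75 members (42.9%, 35.4 to 50.5%) against 46.9% of other probes, and an added 5 in 13 (7.43%, 4.01 to 12.4%) against 11.2%. By these counts an estimated 112.5 members were means of 3 arrays, 26 means of 2 and 36.5 single values (20.9%). Single values made up an estimated 7.10% of the other probes, and 9.74% of the 231 low in the salivary gland alone. At salivary gland values of -4 or less the estimate was 27.0% of members against 19.8% of all probes with both values. Between -4 and -3 it was 20.3% against 22.3%, and above -3, up to the threshold, 17.3% against 4.71%. The salivary gland value of DAC019N19 ended in a repeating fraction and is a mean of 3. Its fat body value had 3 decimals, as did both values of DAC029D05, which leaves their replication unknown.

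The share of members also differed with the decimals. Of 968 probes with 3 decimals in both columns, 6.40% were members (62 probes). Of 1030 probes shown to be a mean of 3 in the salivary gland and of 2 in the fat body, 2.91% were (30 probes). These 30 members had a fat body median of -3.53 and a salivary gland median of -3.38, against -3.59 and -3.37 over all members, and 24 of them (80.0%) lay within 2-fold. Their lowest values were -6.91 in fat body and -5.19 in salivary gland. Both values were at -4 or less in 2 of the 30, compared with 11 of the 62 members with 3 decimals throughout. The part of missing arrays in the extreme values was not tested.

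The probe IDs were read here as a plate number, a row letter and a column number, a layout that the sample labels do not describe. By this reading, members came from 39 of the 40 plates that held probes with both values. On the 38 plates with 50 or more such probes, their share ran from 0.83% to 8.33%, or 1 to 10 members a plate. Plates numbered 29 to 40 held 69 members among 1325 probes (5.21%), and plates 3 to 28 held 99 among 3029 (3.27%), a division made after the values were seen. The last plate, number 41, had 96 probes on the array and 29 with both values, of which 7 (24.1%) were members. Those 7 ran from -5.56 to -2.64 in fat body and from -4.61 to -2.68 in salivary gland, inside the range of the others. Without that plate the member share was 3.85%.

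The column number in the ID, taken with its period of 12, went with a narrower range of shares. The share was lowest at position 12 (2.56%) and highest at position 11 (5.50%), which adjoin each other. By row letter, with a period of 4, it ran from 3.31% to 4.47%. When the medians of all 48 position classes were made equal, 183 probes met the rule, of which 154 were among the original 175.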

How the data were processed

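Two-colour oligonucleotide arrays were scanned with a GenePix scanner and read with GenePix Pro 5, per the series' design text. The deposited values are log ratios, read here as log2, that the authors averaged over biological replicates, per the labels' descriptions. The base is not stated, and base 2 was taken because the largest positive values would lie furthest beyond a scanner's range in natural or decimal logs. The members' own values do not settle it. In base 2 the repeated fat body value of -8.966 is a 500-fold difference and the value of -6.644 a 100-fold one. These round folds were picked out after the values were seen, and the share of round folds over all probes was not counted. Other low fat body values of members gave no round fold, as -7.158 was 143-fold, -6.805 was 112-fold and -6.704 was 104-fold. The base was not tested on these values. Each fold printed here depends on the base 2 reading. How background was corrected, how arrays were normalized and centred, which dye is the numerator and what left values missing are likewise not stated in the labels. The column medians over all values were -0.22 (salivary gland) and -0.18 (fat body). The number of arrays limits precision, and brightness is unknown.

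Members were taken by the threshold on values as deposited, in Python 3.11.15 with pandas 2.3.3. Intervals are exact binomial (scipy 1.17.1). No test across probes was run, since each comparison has 1 averaged value per probe. The rule for decimals was tested on simulated data. Members and lists were chosen with earlier results of these data known. The naming rule for unmatched IDs gives the 2 members that rank highest by the less negative value. Alternatives were another zero point, thresholds of -2 and -3, a common scale, shown averages and equal position medians. A zero point over probes with both values, restrictions that allow salivary gland means of 2, or leave out the repeated lowest value, and the member share among shown averages were added after seeing the data.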

Additional observations from a re-analysis of the deposited data

Results flagged for a closer look

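Outside the probes with both values, 217 probes had a salivary gland value of -2.5 or less and no fat body value, and so could not be members. They made up 34.8% of the 623 salivary gland values at or below the threshold. They ran from -8.78 to -2.505, with a median of -3.22, and an estimated 39.6% of them were single values by their decimals. In the fat body column 4 probes past the threshold lacked a salivary gland value (1.37% of 292). Those 4 ran from -3.08 to -2.74 and all had 3 decimals.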

How the results depend on the processing

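No paired analysis was possible because the columns hold averages over arrays, and for the same reason none of the replicates could be left out. At a threshold of -2 there were 334 members, with medians of -2.93 (salivary gland) and -2.90 (fat body), and at -3 there were 96, with medians of -3.75 and -4.06. Both changes follow from the moved threshold. Among probes whose decimals show a mean of 3 salivary gland and 2 fat body arrays there were 30 members, or 2.91% of such probes against 3.99%, with 80.0% within 2-fold. Where salivary gland means of 2 were also allowed, the count was 35 (2.80%), with 82.9% within 2-fold and a salivary gland median of -3.52. The counts fall in part because fewer probes are tested and in part through the lower share. The cause of the lower share was not tested. Centring each column on its median, with or without scaling to a common spread, gave 141 members, all among the 175. Centring on the median of the probes with both values, added after seeing the data, gave 105, also all among them, with a salivary gland median of -3.18, which follows from the moved zero. Of 24 planned values, 16 stayed within 1.5 times the count or within the interval of the reported value. Those intervals were 64.7 to 78.5% within 2-fold, and -3.47 to -3.23 (salivary gland) and -3.82 to -3.38 (fat body) for the medians. They treat the selected probes as independent and cover counting error only. The error of each alternative value, such as those from 30 members, was not computed. Counting genes in place of probes, and members by gene list, was not run, since probes could not be paired with genes.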
